A study of Gallus gallus with 16 samples.

Results

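Gene expression was compared at Hamburger-Hamilton stage 25 (HH25) between chick cells that carried 2 neural crest reporters and cells that carried neither. Double-positive (DP) cells had signal from both the NC2 and the E2 reporter, and negative cells had signal from neither, per the labels. The comparison was chosen by these labels and holds 4 of the 16 RNA-seq libraries of the series, 2 DP and 2 negative. All embryos were wild type, were electroporated with both reporter constructs at HH8 or HH9, and gave vagal regions that were dissociated and sorted by fluorescence at HH25. The labels name citrine as the reporter protein of both constructs and do not say how cells with 1 signal were told from cells with both. They also do not say how many embryos went into a library or whether replicate libraries had separate embryos as their source, so p-values measure the spread between libraries, which may be technical. HH18 DP and HH18 negative cells, sorted by the same labels from embryos electroporated at the same stages, serve as the earlier counterpart, and HH25 cells with E2 signal alone (E2) are given beside some values. HH10 cells, with E2 signal or negative, came from embryos electroporated at HH4.

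As background, the neural crest forms at the border of the neural plate, leaves the dorsal neural tube by an epithelial-to-mesenchymal transition and migrates through the embryo. The vagal crest of the posterior hindbrain is the main source of enteric neurons and glia, and it adds cells to the outflow tract of the heart and to pharyngeal connective tissue. NC2 and E2 are known as enhancers of FOXD3 and SOX10, transcription factor genes that mark early and migrating crest. Electroporation reaches only a part of the cells, so a cell without signal need not be a cell in which the enhancers are silent, and unlabelled vagal tissue also holds blood, vessel, muscle, neural tube and other cells. In bulk libraries, fewer cells of a type and less RNA per cell cannot be told apart.

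The table gives genes by Ensembl identifier and does not pair them with names. None of the identifiers matched the reference table of 25635 chicken genes (0 matches), so SOX10, FOXD3 and the 25 marker lists could not be looked up and the sorted identities could not be checked against their markers. Genes are therefore described by identifier, by position on galGal5 and by the exon structure that the table lists. The DP libraries held 12634040 and 37459288 counts with 13745 and 14748 genes detected, and the negative libraries held 20261455 and 9153539 counts with 12787 and 13144 genes detected. Libraries of a group differed by more than 2-fold in 27.9% of 14676 tested genes for DP cells and in 41.9% for negative cells, the widest spread of the 8 groups. Intervals and floors given below cover counting error only.

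DP and negative cells differed over a large part of the measured genes. Of 14676 genes, 23.6% were called (edgeR quasi-likelihood test, Benjamini-Hochberg adjusted p below 0.05), with 2003 higher in DP cells (13.6%) and 1462 lower (9.96%). The higher genes had a median log2 fold change of 2.37, the lower genes one of -2.13 and all tested genes one of 0.19. Changes of at least 4-fold were common, with 1272 higher and 825 lower genes. Both DP libraries lay on 1 side of both negative libraries in 61.8% of tested genes, above them in 35.1% and below them in 26.8%. A fitted log2 fold change of 8 or more in size was reached by 220 higher and 92 lower genes. Of all called genes, 214 higher and 75 lower ones had 0 counts in the other group. For those genes the fitted value depends on the prior count and is no measure of size, and bounds are given below. Calls were more frequent among abundant genes: 4.12%, 15.7%, 27.9% and 46.8% of genes were called over the quartiles of mean level in rising order. The count of calls was 2217 without DP library 2, 1470 without DP library 3 and 1760 without negative library 1. Of these 1470 calls, made with DP library 2 as the lone DP library, 1021 were higher and 449 lower, on the assumption that it varies like the other groups.

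The genes on the 2 sides carried very different parts of the RNA. Genes lower in DP cells made up 13.9% and 10.7% of the counts in the DP libraries, against 44.8% and 39.3% in the negative libraries. Genes higher in DP cells made up 28.7% and 31.5% of the counts in the DP libraries, against 6.46% and 8.27% in the negative libraries. These shares restate the calls at HH25, and the other libraries, which did not enter that contrast, show where each side stands elsewhere. In the 6 HH18 libraries the lower genes took 17.5% to 26.5% and the higher genes 17.3% to 23.4% of counts, between the HH25 groups. In the 4 HH10 libraries the lower genes took 11.6% to 15.8% and the higher genes 26.2% to 30.0%, close to the values of HH25 DP cells. The quartile of genes with the longest exon length, described below, took 26.8% to 37.5% of counts in HH10 libraries. It took 28.3% and 37.6% in HH25 DP libraries, and whether the likeness goes beyond gene length was not tested. The HH25 E2 libraries stood at 23.9% and 30.4% for the lower and 16.6% and 11.8% for the higher genes. The mean level in E2 cells lay between the DP and negative means for 1669 of the 2003 higher genes and for 1255 of the 1462 lower genes, which were selected for the distance between those means.

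**Figure D1:**
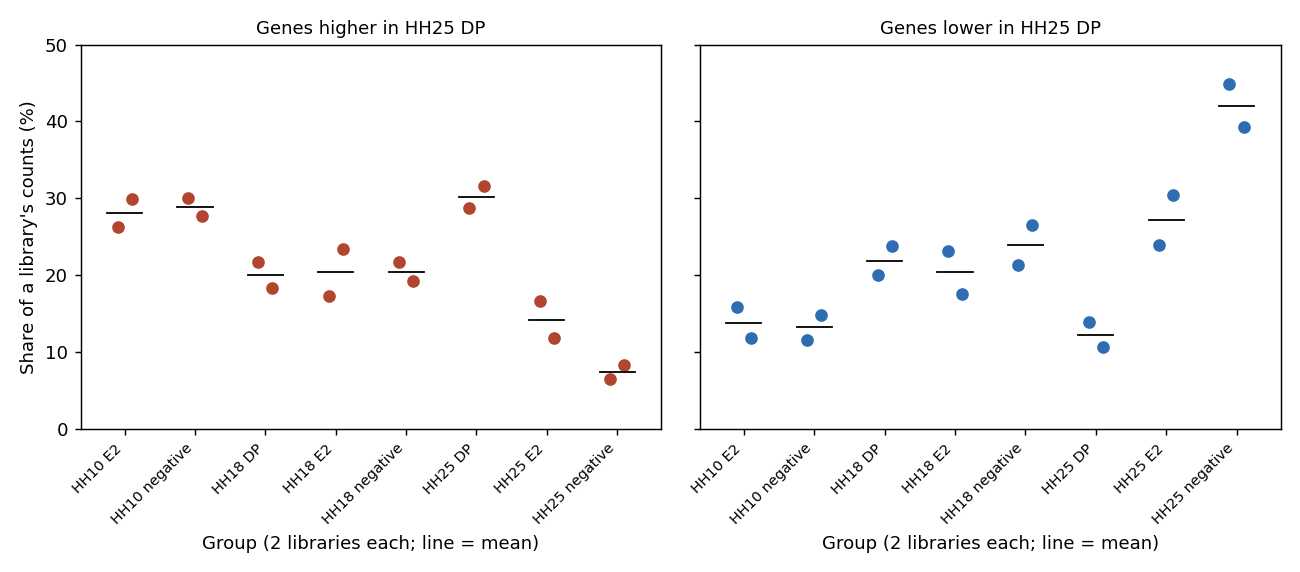
Percent of each library's counts (vertical axis) in the 2003 genes higher (left) and the 1462 genes lower (right) in HH25 DP than in HH25 negative cells, for the 8 groups of the series, with 1 point per library and a line at the mean. HH25 DP libraries lie at 28.7% and 31.5% on the left, near the HH10 libraries, and HH25 negative libraries at 44.8% and 39.3% on the right lie above all others.

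The 2 sides also differed in the structure of their genes. Genes higher in DP cells had a median exon length of 2532 bases, 12 exon intervals and a genomic span of 19571 bases, whereas lower genes had medians of 1168 bases, 5 exon intervals and 3811 bases. The medians over all tested genes were 1872 bases, 8 exon intervals and 11778 bases. Of the quartile of genes with the shortest exon length, up to 1204 bases, 20.7% were lower and 4.66% higher. Of the quartile with the longest, from 2912 bases, 2.86% were lower and 20.3% higher. The median log2 fold change was -1.02, -0.15, 0.71 and 0.85 over the quartiles in rising order of length. Among genes above the median expression level the same medians were -1.57, -0.31, 0.78 and 1.02, so the gradient was not limited to genes with few counts.

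The length gradient was present in each pair of a DP with a negative library at HH25. The median log2 difference of the longest quartile exceeded that of the shortest by 1.05 to 2.08 over the 4 pairs, and by 1.05 and 1.43 in the pairs with DP library 2. Between libraries of 1 group the same quantity was 0.098 to 0.74 in size over 8 pairs, between HH18 DP and HH18 negative libraries it ran from -0.54 to 0.17, and between HH25 E2 and HH25 negative libraries from -0.29 to 0.49. Between HH25 DP and HH25 E2 libraries it ran from 0.90 to 1.84 over 4 pairs, so the gradient also set DP libraries apart from E2 libraries. In plain shares, genes of the shortest quartile took 11.4% and 9.31% of counts in DP libraries and 32.5% and 27.7% in negative libraries. The negative values were the highest of the series. HH25 E2 libraries had 17.0% and 22.0%, HH18 libraries 12.7% to 18.2% and HH10 libraries 9.14% to 11.9%. Genes of the longest quartile took 28.3% and 37.6% in DP libraries, 15.8% and 18.1% in negative libraries and 19.2% and 17.2% in HH25 E2 libraries. The 3 libraries whose column names carry the number 3, HH25 DP library 3 with 37.6%, HH10 E2 library 3 with 37.5% and HH10 negative library 3 with 37.5%, had the highest shares of the longest quartile and also the highest total counts in the series. The labels give no batch for them, and no negative library of HH25 carries that number. An alternative added after the data were seen removed each library's trend on exon length and gave 2494 calls, 1084 on the higher and 1410 on the lower side, and 2046 of these were called in the same direction as before. Of the calls, 57.8% were higher with the trend kept and 43.5% without it. The balance also moved with the trend kept. Higher genes were 51.4% of calls with DESeq2 size factors, 51.2% with DESeq2 and 62.9% without a filter on low counts. They were 51.4% with the 6 HH25 libraries alone and 53.0% with the 4 compared libraries alone. The part of RNA quality or library preparation in the gradient was not tested.

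**Figure D2:**
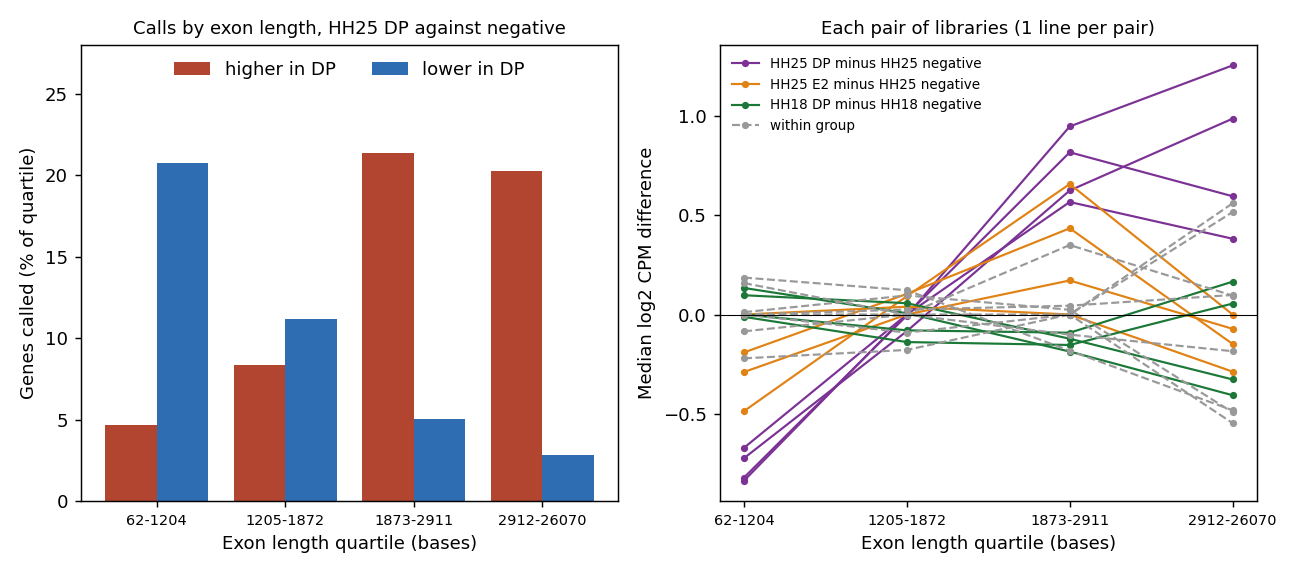
Left, percent of genes in each quartile of exon length (bases) called higher or lower in HH25 DP than HH25 negative cells. Right, median log2 CPM difference per quartile with 1 line per pair of libraries. The 4 lines of HH25 DP minus negative are the lowest of those drawn in the shortest quartile (-0.84 to -0.67). In the longest quartile they lie at 0.38 to 1.25 and overlap with lines of pairs within a group, which reach 0.56 there.

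Among abundant genes, the highest levels on the DP side belonged to ENSGALG00000010722 and ENSGALG00000033789. Levels are counts per 1e6 counts scaled by TMM (CPM), and genes were ranked by CPM per kb of exon length among genes still called whichever of the 4 libraries was dropped. Genes whose DP and negative libraries overlap at HH25 were left out, so the separation of named genes at HH25 was fixed by selection. ENSGALG00000010722 (chromosome 2, 26674819 to 26685279, on the plus strand with 6 exon intervals) stood at 3424 and 1537 CPM in DP libraries, against 295 and 173 CPM in negative libraries. Its log2 fold change was 3.40 (SE 0.54, adjusted p = 0.0011 by the edgeR quasi-likelihood test). The HH25 E2 libraries, at 2354 and 2885 CPM, lay within the range of the DP libraries. The gene was also called at HH18, with 1048 and 1625 CPM in DP libraries and 117 and 65.9 CPM in negative libraries (adjusted p = 0.0050). In the HH10 libraries it did not exceed 8.43 CPM.

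ENSGALG00000033789 (chromosome 1, 54759459 to 54769305, minus strand, 18 exon intervals) showed another pattern. It had 1981 and 1561 CPM in HH25 DP libraries and 402 and 431 CPM in HH25 negative libraries, a log2 fold change of 2.09 (SE 0.29, edgeR adjusted p = 7.11e-04). At HH18 it had 1626 and 1773 CPM in DP libraries and 1959 and 1495 CPM in negative libraries, which overlap. The difference between DP and negative cells was itself larger at HH25 than at HH18, by 2.11 on the log2 scale (SE 0.40, edgeR adjusted p = 0.0079). Its call at HH25 ended with the length trend removed (log2 fold change 0.99, adjusted p = 0.066).

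The most abundant genes lower in DP cells included 3 short genes on the plus strand of chromosome 14, within 12156905 to 12164434. ENSGALG00000043234 (12163617 to 12164434, 3 exon intervals) had 235 and 129 CPM in DP libraries, against 5872 and 9528 CPM in negative libraries. ENSGALG00000031597 (12160597 to 12161521, 3 exon intervals) had 85.4 and 50.2 CPM in DP libraries, against 3716 and 6121 CPM in negative libraries. Their log2 fold changes were -5.40 (SE 0.66, edgeR adjusted p = 3.31e-04) and -6.18 (SE 0.56, adjusted p = 2.36e-04). The other of these 3 genes had 171 and 110 CPM in DP libraries, against 3875 and 7409 CPM in negative libraries. The 3 are not all direct neighbours, as a tested gene that was not called lower also starts among them. Genes this close together may be copies that share reads, so single levels are less certain than the stretch as a whole. The HH25 E2 libraries lay between the groups, with 722 and 1112 CPM for ENSGALG00000043234. In the 4 HH10 libraries it did not exceed 2.84 CPM. At HH18 it stood at 84.5 and 181 CPM in DP libraries and 6864 and 14916 CPM in negative libraries.

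**Figure D3:**
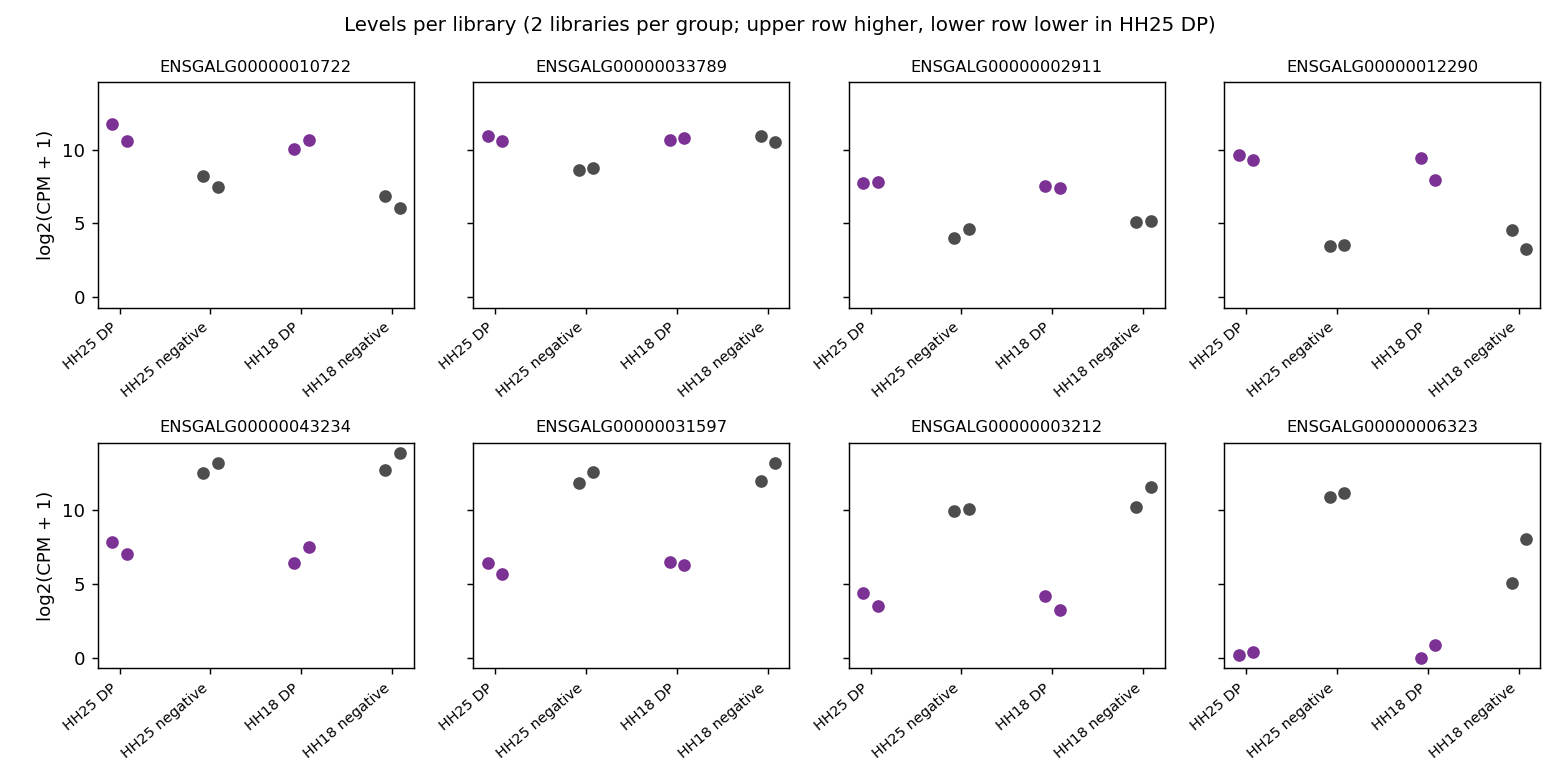
Level of 8 genes as log2(CPM + 1) in the HH25 DP, HH25 negative, HH18 DP and HH18 negative libraries, 1 point per library. In the lower row the DP libraries of both stages lie below all negative libraries, and in the upper row ENSGALG00000033789 separates DP from negative cells at HH25 but not at HH18. Separation at HH25 was a condition for the choice of these genes.

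Some of the called genes had no count in 1 of the 2 groups. On the higher side, 214 of 2003 genes (10.7%) had 0 counts in both negative libraries. On the lower side, 75 of 1462 (5.13%) had 0 counts in both DP libraries. With the group at 0 set to a floor of 3 pooled counts, the higher of these genes were at least 4.92-fold to at least 1007-fold higher, with a median bound of 44.6. The lower ones were at least 9.16-fold to at least 19364-fold lower, with a median bound of 96.2. The median bound was 14.3 for the higher genes without negative library 1 and 22.5 for the lower genes without DP library 3. At the earlier stage, 209 of the 214 had counts in HH18 negative cells and 57 of the 75 had counts in HH18 DP cells. In HH25 E2 cells 197 of the 214 and 56 of the 75 had counts. The matching shares over all tested genes were not computed, so these counts describe the called genes only. The floor stands at 0.108 CPM for negative and 0.0548 CPM for DP cells, and a gene with 0 counts may still be expressed below those levels.

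Called genes lay on all chromosome classes, in unequal shares. On chromosomes 1 to 5, 15.3% of 6557 tested genes were higher and 8.01% lower, and on the small chromosomes 11 to 33, 10.7% of 4999 were higher and 13.5% lower. Chromosomes 16 and 25 were singled out after their values were seen. Chromosome 25 had the highest share of lower genes among the autosomes listed, 27.3% with 4.85% higher of 165 genes, and a median exon length of 1328 bases. Chromosome 16 had the lowest median log2 fold change among them, -1.89, with 16% lower and 2% higher of 50 genes. On chromosome Z, 17.7% were higher and 6.46% lower of 728 genes. Of 23 tested genes on chromosome W, which only female birds carry, 5 were lower and 0 higher, and all W genes together had 37.3 and 75.2 counts per 1e6 in DP libraries and 192 and 190 in negative libraries. The other 12 libraries of the series lay between 214 and 588 counts per 1e6 on W. The sex make-up of the embryos in a library is not given in the labels.

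Several calls of 1 direction stood side by side. Taking neighbours among tested genes in order along a chromosome, 44 runs of at least 3 genes were higher in DP cells and 33 were lower, and with at least 4 genes the counts were 5 higher and 9 lower. Runs also arise from the share of genes called in a direction (13.6% higher, 9.96% lower), and the number this gives was not tested. A run of 5 genes on the plus strand of chromosome 25 (1858035 to 1886619), with 2 to 3 exon intervals each, summed to 35.7 ± 10 CPM in DP cells and 1272 ± 277 CPM in negative cells (SD, n = 2 each). At HH18 the run stood at 216 ± 82.5 CPM in DP cells and 200 ± 49 CPM in negative cells (SD, n = 2 each), which overlap. On chromosome 5, 5 genes in a row (17004711 to 17024801) summed to 79.5 ± 28 CPM in DP cells and 987 ± 12 CPM in negative cells. At HH18 this run did not overlap, with 139 and 218 CPM in DP libraries and 401 and 950 CPM in negative libraries. The longest run on the lower side was on chromosome 16 (87661 to 118450), where 6 genes together reached 117 ± 36 CPM in DP cells and 545 ± 181 CPM in negative cells. Its order was the other way at HH18, with 230 and 201 CPM in DP libraries and 174 and 142 CPM in negative libraries. On the higher side, a run of 4 on chromosome 4 (32158004 to 32368307) came to 880 ± 0.84 CPM in DP cells and 279 ± 16 CPM in negative cells. A run of 5 on chromosome 6 (30380209 to 30714244) came to 609 ± 51 CPM in DP cells and 161 ± 11 CPM in negative cells. Whether a run holds copies that share reads was not tested.

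**Figure D4:**
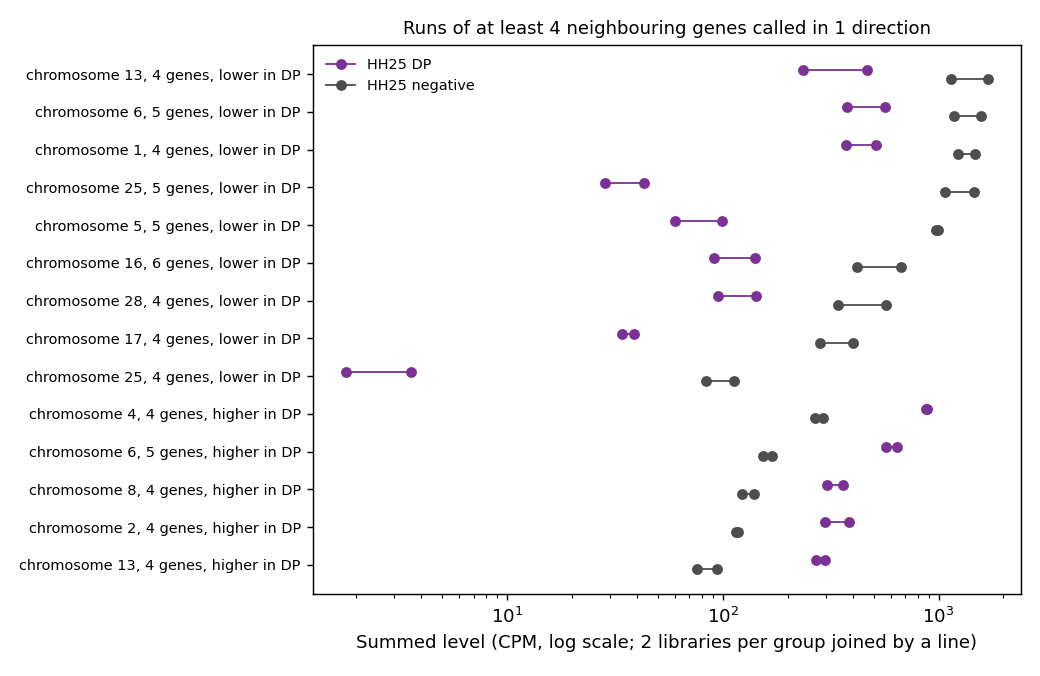
Summed level (CPM, log axis) of the 14 runs of at least 4 neighbouring genes called in 1 direction, with both libraries of HH25 DP and of HH25 negative cells joined by a line. The 9 runs lower in DP cells span summed levels of 2.7 to 470 CPM in DP cells and 98.3 to 1423 CPM in negative cells.

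The same sort at HH18 gave fewer calls by the edgeR test, and the genes called at HH25 did not lean the same way there. Calls at HH18 covered 0.463% of the 14676 genes, with 14 (0.0954%) above and 54 (0.368%) below the negative cells (edgeR quasi-likelihood test, adjusted p below 0.05). The HH18 count was 116 without a filter on low counts (23 higher, 93 lower) and 430 with DESeq2 (128 higher, 302 lower). HH18 negative libraries held 7692817 and 4032540 counts, the lowest totals of the series, and HH18 DP libraries 10838093 and 19164931. Libraries of a group differed by more than 2-fold in 40.2% of genes for HH18 DP and 24.0% for HH18 negative cells. The part of depth and spread in the lower count was not tested. Of the 2003 genes higher at HH25, 780 had a positive and 1221 a negative log2 fold change at HH18, with a median of -0.16. Of the 1462 lower genes, 571 had a negative and 889 a positive value at HH18, with a median of 0.15. Over all tested genes the HH18 median was 0.00, with 7036 positive and 7340 negative values. Over the quartiles of exon length in rising order the HH18 median was 0.07, 0.00, -0.09 and -0.05. The part of gene length in the HH18 medians of the higher and lower genes was not tested. The HH18 libraries took no part in the HH25 contrast, although all libraries share 1 estimate of the spread.

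A small set of genes was called in the same direction at both stages. Of the 54 genes lower at HH18, 34 were lower at HH25 (63.0% of the HH18 genes and 2.33% of the HH25 genes), and of the 14 higher, 6 were higher at HH25 (42.9% and 0.30%). Over all tested genes, 9.96% were lower and 13.6% higher at HH25. Another 5 genes were called in opposite directions at the 2 stages. Of the 14 genes higher at HH18, 3 were lower at HH25, and of the 54 lower at HH18, 2 were higher at HH25. The 34 genes took 0.143% and 0.117% of counts in HH25 DP libraries, against 2.80% and 4.10% in HH25 negative libraries. At HH18 they took 0.148% and 0.157% in DP libraries, against 2.84% and 6.18% in negative libraries. In the 4 HH10 libraries their shares ran from 0.106% to 0.117%. The HH18 count of lower genes was 19 without HH18 DP library 1 and 25 without HH18 negative library 2, and 0 genes were called higher without HH18 negative library 2 by the edgeR quasi-likelihood test, with 599 genes of either direction at an unadjusted p under 0.05; DESeq2 was not run without that library.

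On the higher side, ENSGALG00000002911 and ENSGALG00000012290 had the smallest adjusted p at HH25 among the 6 genes called at both stages. ENSGALG00000012290 (chromosome 1, 51089596 to 51098755, on the plus strand with 4 exon intervals) stood at 799 and 637 CPM in HH25 DP libraries and 10.1 and 10.7 CPM in HH25 negative libraries. The HH18 levels were 677 and 248 CPM in DP libraries and 22.8 and 8.69 CPM in negative libraries. Its log2 fold changes were 6.11 (SE 0.91) at HH25 and 4.85 (SE 0.86) at HH18, with edgeR adjusted p of 8.88e-04 and 0.019. The HH25 E2 libraries, at 97.2 and 42.8 CPM, lay between DP and negative libraries. ENSGALG00000002911 (chromosome 3, 57097209 to 57149346, on the plus strand with 13 exon intervals) reached 213 and 225 CPM in HH25 DP libraries and 15.2 and 23.7 CPM in HH25 negative libraries. At HH18 it had 189 and 172 CPM in DP libraries and 33.2 and 34.5 CPM in negative libraries. HH25 E2 library 1, at 238 CPM, lay above the HH25 DP libraries, and HH25 E2 library 2, at 102 CPM, lay between DP and negative libraries.

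On the lower side, ENSGALG00000003212 (chromosome 26, 4699001 to 4704104, on the plus strand with 4 exon intervals) was at 20.5 and 10.4 CPM in HH25 DP libraries and 981 and 1083 CPM in HH25 negative libraries. At HH18 it was at 17.1 and 8.56 CPM in DP libraries and 1195 and 3026 CPM in negative libraries, so the DP libraries of both stages overlap. ENSGALG00000006323 (chromosome 13, 15273853 to 15278709, on the plus strand with 7 exon intervals) was nearly absent from DP cells. It had 0.156 and 0.334 CPM in HH25 DP libraries, 16 counts in all, against 1918 and 2332 CPM in HH25 negative libraries, a ratio of 7016 in pooled counts (95% interval 4320 to 12275). Without DP library 3 only 2 counts were left in DP cells and the ratio was 13104 (95% interval 3628 to 108210). At HH18 its DP libraries had 0 and 0.878 CPM and its negative libraries 32.4 and 270 CPM. The edgeR adjusted p of both genes was 2.36e-04 at HH25.

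**Figure D5:**
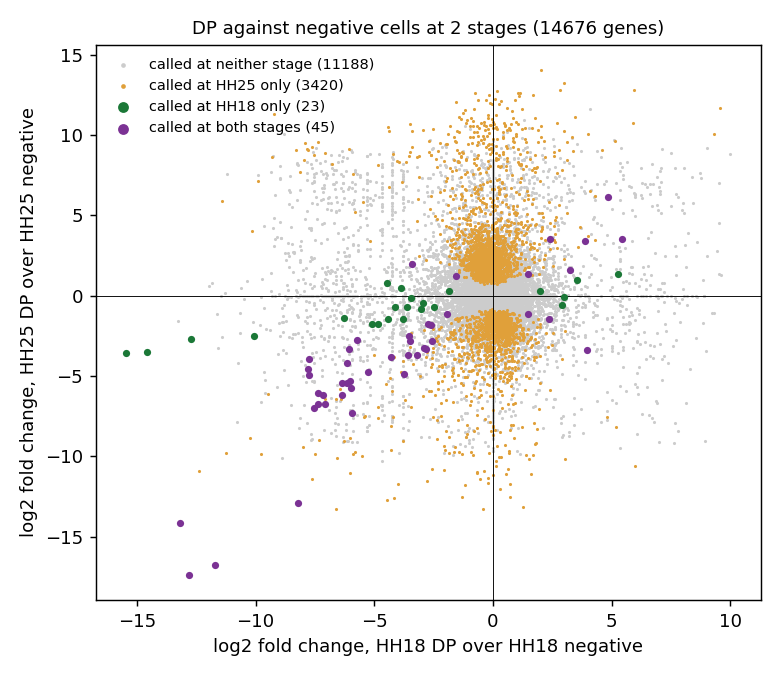
Log2 fold change of DP over negative cells at HH25 (vertical) against HH18 (horizontal) for the 14676 tested genes, coloured by the stage at which a gene was called. The 34 genes called lower at both stages lie at the lower left and the 6 called higher at both at the upper right, and genes called at HH25 only spread along the vertical axis.

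The gap between DP and negative cells differed between the stages for many genes. The difference of DP minus negative between HH25 and HH18 was called for 14.5% of 14676 genes, 1273 (8.67%) with a higher and 851 (5.8%) with a lower value at HH25 (edgeR quasi-likelihood test, adjusted p below 0.05). The libraries of HH25 enter both this test and the HH25 calls, so the overlap of both lists is a description. Of the 2003 genes higher at HH25, 1097 were also called in the difference. Their median level was 96.2 and 108 CPM in HH25 DP libraries and 15.6 and 19.96 CPM in HH25 negative libraries, while at HH18 it was 59.2 and 46.5 CPM in DP libraries and 76.5 and 76.3 CPM in negative libraries. Between the stages the median log2 level of these genes differed by 0.87 in DP and by -2.25 in negative cells (HH25 minus HH18), and for 941 of them the negative cells differed more than the DP cells. Of the 1462 lower genes, 774 were called in the difference. For these the median stage difference was -1.03 in DP and 1.33 in negative cells, and the negative cells differed more for 483 of them. Both sets were chosen on these same levels, and how often negative cells differed more over all tested genes was not computed. These counts therefore describe the chosen genes only. With the length trend removed the count of genes called in the difference was 1128, with 502 higher and 626 lower. Without 1 library it was 1106 (HH18 DP library 2), 671 (HH25 DP library 3), 656 (HH18 negative library 1), 774 (HH18 negative library 2) and 1069 (HH25 negative library 1).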

How the data were processed

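Sorted cells gave RNA-seq libraries through a full-length low-input cDNA kit and paired-end sequencing (per the labels' protocols). What the authors deposited are whole-number read counts of each gene, not normalized, in 16 libraries of 8 groups. STAR 2.4.2a, Subread 1.4.5, featureCounts, DESeq2 and the build galGal5 are named in the submitters' processing notes. How strand and multi-mapping reads were handled is not given there, so overlapping, antisense or near-identical genes may share reads. Columns numbered 2 and 3 were read as HH25 DP and columns named H12 as the HH10 groups of the sample records, by group; libraries are called by the numbers of the columns. The exon length of a gene is deposited in the table.

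Counts were tested with edgeR 4.0.16 (limma 3.58.1, R 4.3.3): TMM, filterByExpr defaults (14676 of 24881 genes kept), 1 quasi-likelihood fit of all 16 libraries with a mean for each of 8 groups (8 residual degrees of freedom), and Benjamini-Hochberg adjustment over all genes tested. SEs are the log2 fold change divided by the root of F. DESeq2 1.42.0, other filters, scalings and sets of libraries were alternatives. Log2 CPM used a prior count of 2. Named genes followed a written rule (calls in every fit with 1 library left out, at least 5 CPM in the higher group, no overlap); because identifiers carry no names, only the first 2 per direction of its lists by level, by both stages and by stage difference are given by identifier. The comparison, rules and lists were chosen with earlier results of these data known. The 25 gene lists matched no identifier, and no sequence is shown.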

Additional observations from a re-analysis of the deposited data

Results flagged for a closer look

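The gap between DP and negative cells differed between HH25 and HH18 in a test of the difference itself for 2124 genes (edgeR quasi-likelihood test, adjusted p below 0.05). The 4 genes below were chosen by the rule for named genes, as the most extreme values among its candidates. Each had 0 counts in 1 HH25 group, so the fitted log2 differences depend on the prior count and are no measure of size.

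ENSGALG00000026594 (chromosome 3, 64739075 to 64934511) had 12.9 and 5.91 CPM in HH25 DP libraries and 0 counts in HH25 negative libraries, at least 70.1-fold higher. This bound was 22.4 without HH25 negative library 1 and 120 without HH25 DP library 3. At HH18 it had 0.271 and 0 CPM in DP libraries and 3.28 and 2.24 CPM in negative libraries. Its fitted log2 difference between the stages was 14.93 (edgeR adjusted p = 0.0091). ENSGALG00000010478 (chromosome 8, 21991222 to 22008702) had 11.7 and 69.2 CPM in HH25 DP libraries and 0 counts in HH25 negative libraries, at least 376-fold higher. The bound was 643 without HH25 DP library 2, 108 without HH25 DP library 3 and 120 without HH25 negative library 1. Its HH18 levels were 17.6 and 6.36 CPM in DP libraries and 14.5 and 26.4 CPM in negative libraries, with a fitted difference of 13.39 (adjusted p = 0.0052).

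In the other direction, ENSGALG00000006216 (chromosome 5, 12184436 to 12187655) had 0 counts in HH25 DP libraries and 77.2 and 38.1 CPM in HH25 negative libraries, at least 1052-fold lower. The bound was 246 without HH25 DP library 3 and 696 without HH25 negative library 1. Its HH18 levels were 0 and 2.80 CPM in DP libraries and 0.410 and 0.841 CPM in negative libraries, with a fitted difference of -14.38 (adjusted p = 0.0099). Without HH18 DP library 2 its adjusted p was 0.9999, without HH25 DP library 3 it was 0.052 and without HH18 negative library 1 it was 0.053. ENSGALG00000026781 (chromosome 1, 175088272 to 175096275) had 0 counts in HH25 DP libraries and 43.7 and 31.1 CPM in HH25 negative libraries, at least 682-fold lower, or at least 159-fold without HH25 DP library 3. At HH18 it had 32.5 and 24.96 CPM in DP libraries and 16.3 and 18.8 CPM in negative libraries, with a fitted difference of -13.22 (adjusted p = 0.011). Its adjusted p was 0.054 without HH25 DP library 3, 0.056 without HH18 negative library 1 and 0.051 without HH18 negative library 2.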

How the results depend on the processing

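The count of 3465 genes called between HH25 DP and negative cells was 2097 with a log2 fold change of at least 2 as a further condition, and ran from 1470 to 3440 with 1 library left out. DESeq2 size factors gave 3393 (1744 higher, 1649 lower), no filter 3553, the stricter filter 3620, DESeq2 4933, the 6 HH25 libraries alone 2745 and the 4 compared libraries alone 2321. DESeq2 size factors put the median log2 fold change of all genes at 0.03, against 0.19 for TMM, and that of the difference between stages at 0.20, against 0.36. For HH18 the 68 calls were 116 without a filter (23 higher, 93 lower) and 430 with DESeq2 (128 higher, 302 lower), and 22 to 62 with 1 library left out. For the difference between stages the 2124 calls were 3498 with DESeq2, 1128 with the length trend removed, and 656 to 2737 with 1 library left out. No value of a named gene reversed under any of these settings. The rule for named genes required the HH25 call in each fit with 1 HH25 DP or negative library left out. Their HH25 calls in those fits were therefore fixed by selection. Of 34 tested values of named genes, 3 lost their call with the length trend removed and 1 with DESeq2, and 1 of 30 did with the 4 compared libraries alone. Calls in the difference between stages that were lost with 1 library left out are given above. The causes were not tested. No paired analysis was possible at HH25 because the columns of DP (2 and 3) and negative cells (1 and 2) share only 1 number, which also holds for the difference. At HH18 a replicate block gave 62 calls. Same-numbered DP and negative libraries did not deviate together (r = -0.010 across genes for library 2 minus library 1). This single correlation cannot show whether they shared embryos or a sort, which the labels do not give.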
